A study of Mus musculus with 15 samples.

Results

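Bcl2a1b, Tnfsf13 and Lst1, 3 genes known from leukocytes, were followed over 4 ages in whole mammary glands of BALB-neuT mice. They are 3 of 311 genes that could be named on the array, each is measured by 1 of 33012 gene probes, and all 3 probes passed the filter on dim probes. The probes were found by the RefSeq accession that the array files give: NM_007534.1 for Bcl2a1b, NM_023517.1 for Tnfsf13 and NM_010734.1 for Lst1. The genes were singled out because earlier results of the same arrays showed them higher at week 22, and also at week 19, than at week 10. Their values in these comparisons are therefore given as a description with no test.

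BALB-neuT mice are transgenic for the activated rat HER-2/neu oncogene under control of the mouse mammary tumor virus promoter, and carcinomas form in their mammary glands with age. Total RNA of glands prepared as whole mounts was taken from 5 mice at 10 weeks, 2 at 15 weeks, 4 at 19 weeks and 4 at 22 weeks; each array holds the RNA of 1 animal, per the series' design text. No mouse in the series received a treatment that the labels name, and all carried the transgene, so carcinogenesis and the ageing of the mice cannot be told apart. The arrays were Applied Biosystems AB1700, a single-colour platform read by chemiluminescence, with between 46.1% and 53.9% of gene probes detected per array and a median signal from 650.2 to 1626.

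Bcl2a1b encodes a copy of A1, a short-lived member of the Bcl-2 family that keeps activated leukocytes alive by binding proteins that trigger apoptosis. Tnfsf13 encodes APRIL, a ligand of the tumor necrosis factor family that is made largely by myeloid cells and acts on the receptors TACI and BCMA of B cells and plasma cells. Lst1 encodes a small membrane protein of myeloid and other leukocytes and lies between Aif1 and Ltb in the class III region of the major histocompatibility complex. In RNA of a whole gland, more cells of a type and more RNA per cell cannot be told apart.

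The promoters are shown because the copies of A1 are so alike that a probe may not separate them, and because the 3 genes were high on the same arrays. RefSeq sequences of build GRCm38.p6 of 300 bases around the transcript start were at hand for Bcl2a1b (chr9:89199023-89199322, plus strand), its neighbouring copy Bcl2a1a (chr9:88956670-88956969, plus strand) and Tnfsf13 (chr11:69685505-69685804, minus strand), and not for Lst1. Capitals mark GAGGAA on either strand, the PU box read by the leukocyte factor PU.1.
Bcl2a1b: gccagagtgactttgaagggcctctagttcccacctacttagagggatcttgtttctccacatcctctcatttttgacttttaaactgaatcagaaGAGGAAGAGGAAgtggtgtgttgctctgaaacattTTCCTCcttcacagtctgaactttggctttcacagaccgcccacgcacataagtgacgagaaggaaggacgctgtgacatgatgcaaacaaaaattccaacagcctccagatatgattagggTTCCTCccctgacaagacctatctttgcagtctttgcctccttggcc
Bcl2a1a: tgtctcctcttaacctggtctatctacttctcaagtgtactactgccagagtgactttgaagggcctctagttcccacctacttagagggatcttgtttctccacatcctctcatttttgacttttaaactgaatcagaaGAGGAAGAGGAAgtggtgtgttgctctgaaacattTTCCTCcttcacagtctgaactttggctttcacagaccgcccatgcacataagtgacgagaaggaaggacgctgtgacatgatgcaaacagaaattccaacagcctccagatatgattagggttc
Tnfsf13: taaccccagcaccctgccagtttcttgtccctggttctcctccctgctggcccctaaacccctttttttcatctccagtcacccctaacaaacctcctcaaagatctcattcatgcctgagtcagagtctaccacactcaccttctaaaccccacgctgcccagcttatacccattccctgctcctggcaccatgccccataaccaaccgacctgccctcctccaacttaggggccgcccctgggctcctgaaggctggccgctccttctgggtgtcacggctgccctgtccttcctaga

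Over 256 aligned positions the Bcl2a1b and Bcl2a1a promoters were 99.2% identical, with 2 mismatches. Bcl2a1b was 96.5% identical to Bcl2a1d over 256 positions and 95.7% identical to Bcl2a1c over 234. None of the 3 other copies has a probe that could be named. The sequence of the Bcl2a1b probe was not at hand, so its level may hold RNA of several copies, which was not tested. GAGGAA occurred 4 times in the Bcl2a1b promoter, of which a pair lies side by side without overlap, 3 times in Bcl2a1a and not at all in Tnfsf13. The Bcl2a1a window ends inside the stretch that holds the last Bcl2a1b match, so these counts do not compare the same positions. The motif is common, being in 28.3% of 32851 promoters of this length. The kappa B motif, present in 0.411% of promoters, and the STAT motif TTCNNNGAA, present in 8.3%, were in none of these sequences, the other copies included, on either strand. The motifs were chosen after the sequences had been seen, and a match or its lack says nothing about binding.

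Levels below are log2 signals after quantile normalization between arrays, differences are on the same scale with the standard error of the fit, and detection of a probe required its signal to reach 3 times the noise. All 3 genes were detected on 15 of 15 arrays. Their signal-to-noise ratios ranged from 29.2 to 67.3 for Bcl2a1b, from 28.7 to 88.8 for Tnfsf13 and from 9.57 to 57 for Lst1, so no level lay near the floor of the assay.

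Bcl2a1b stood at 13.81, 13.94, 13.54, 14.53 and 13.95 on the week 10 arrays in order of replicate. At week 15 it was at 15.22 in replicate 1 and 13.98 in replicate 2, at week 19 it was at 15.88, 15.85, 16.15 and 15.93, and at week 22 at 15.88, 15.49, 15.75 and 15.72. Every week 19 and week 22 array lay above every earlier one, week 15 replicate 1 came closest to them, and week 15 replicate 2 lay among the week 10 arrays. The means were 13.96 ± 0.36 (SD, n = 5) at week 10, 14.60 ± 0.88 (n = 2) at week 15, 15.95 ± 0.14 (n = 4) at week 19 and 15.71 ± 0.16 (n = 4) at week 22. The anti-apoptotic gene was thus higher than at week 10 by 1.99 ± 0.24 at week 19, or 3.98-fold, and by 1.75 ± 0.24 at week 22, or 3.37-fold.

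Tnfsf13 was at 14.34, 13.82, 13.54, 13.98 and 13.65 on the week 10 arrays and at 13.94 and 14.11 at week 15. It reached 15.00, 15.24, 15.31 and 15.11 at week 19 and 15.01, 15.17, 15.02 and 15.48 at week 22. Here both week 15 arrays lay within the range of week 10, and all late arrays lay above all early ones. The means of the APRIL gene were 13.86 ± 0.31 (SD, n = 5), 14.03 ± 0.12 (n = 2), 15.17 ± 0.13 (n = 4) and 15.17 ± 0.22 (n = 4) in order of age. The differences from week 10 were 1.30 ± 0.18 at week 19 (2.46-fold) and 1.31 ± 0.18 at week 22 (2.47-fold).

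Lst1 was at 13.02, 12.75, 12.78, 13.20 and 12.74 on the week 10 arrays, at 13.12 and 12.38 at week 15, at 13.75, 13.82, 14.48 and 14.02 at week 19, and at 14.29, 14.08, 13.88 and 13.84 at week 22. Week 15 replicate 2 was the lowest array of all and week 19 replicate 3 the highest, and late and early arrays again did not overlap. Its means were 12.90 ± 0.20 (SD, n = 5), 12.75 ± 0.53 (n = 2), 14.02 ± 0.33 (n = 4) and 14.02 ± 0.21 (n = 4) in order of age. Lst1 was higher than at week 10 by 1.12 ± 0.20 both at week 19 and at week 22, which is 2.17-fold and 2.18-fold.

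**Figure D1:**
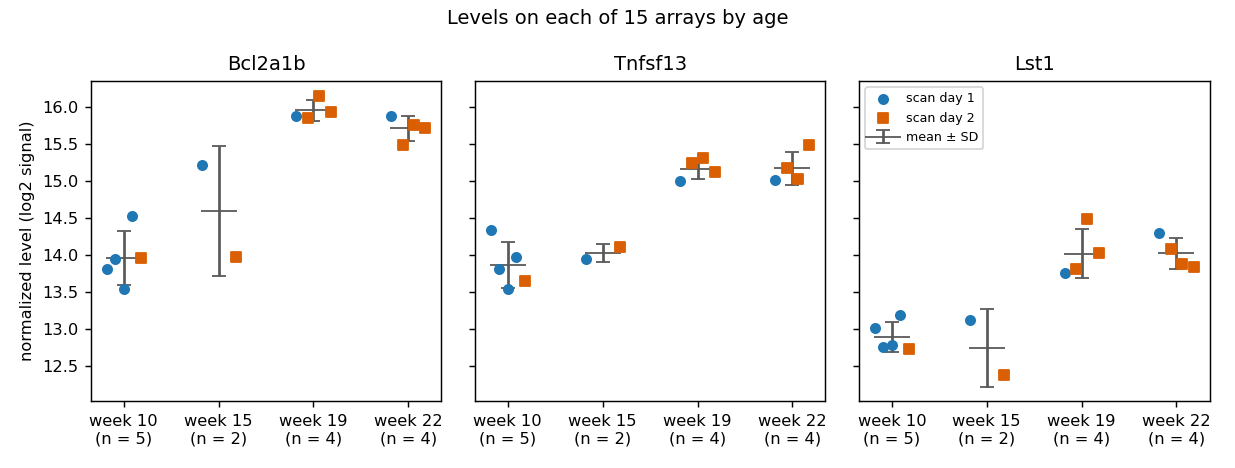
Normalized log2 signal of Bcl2a1b, Tnfsf13 and Lst1 on each array (points, by scan day) at 4 ages, with the mean and SD of each age. For all 3 genes the 8 arrays of weeks 19 and 22 lie above the 7 arrays of weeks 10 and 15, and the 2 week 15 arrays lie far apart for Bcl2a1b, at 15.22 and 13.98.

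The gap between the lowest late and the highest early array was 0.27 for Bcl2a1b, 0.67 for Tnfsf13 and 0.56 for Lst1. With each array centred on its median in place of quantile normalization the gaps were 0.38, 0.59 and 0.46. Of the 20867 kept probes, 4.67% had all late arrays above all early ones. By the rule that chose them, all 3 members are among the probes called higher at weeks 22 and 19 against week 10 (limma adjusted p under 0.05), beside 7.78% of kept probes higher and 12% called either way at week 22, and 7.28% and 12.5% at week 19. At week 22 the calls were 1623 higher and 872 lower, and 2674 and 500 with array medians. Nothing is read from these counts, since the members were chosen on these contrasts.

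Scan day, which the file headers give, went in part with age, as 4 of 5 week 10 arrays but only 1 of 4 arrays at week 19 and at week 22 were of day 1. A second grouping was the array series, the run of serial numbers in the labels. Within day 1, day 2, series 3 and series 4 the week 22 minus week 10 difference of Bcl2a1b was 1.92, 1.70, 1.24 and 1.97. In the same order it was 1.09, 1.58, 1.36 and 1.35 for Tnfsf13 and 1.36, 1.19, 1.11 and 1.01 for Lst1. At week 19 the within-batch differences from week 10 were 1.92, 2.02, 1.65 and 2.38 for Bcl2a1b, 1.09, 1.57, 1.36 and 1.41 for Tnfsf13 and 0.81, 1.37, 0.95 and 1.63 for Lst1. Each batch thus gave a higher late level for each gene, a direction that the absence of overlap already fixes, and sizes that stayed at or above 0.81. Day 1 holds 1 array each of weeks 19 and 22, and day 2 holds 1 of week 10. Series 3 holds 1 array of week 22 and series 4 holds 1 of week 19.

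**Figure D2:**
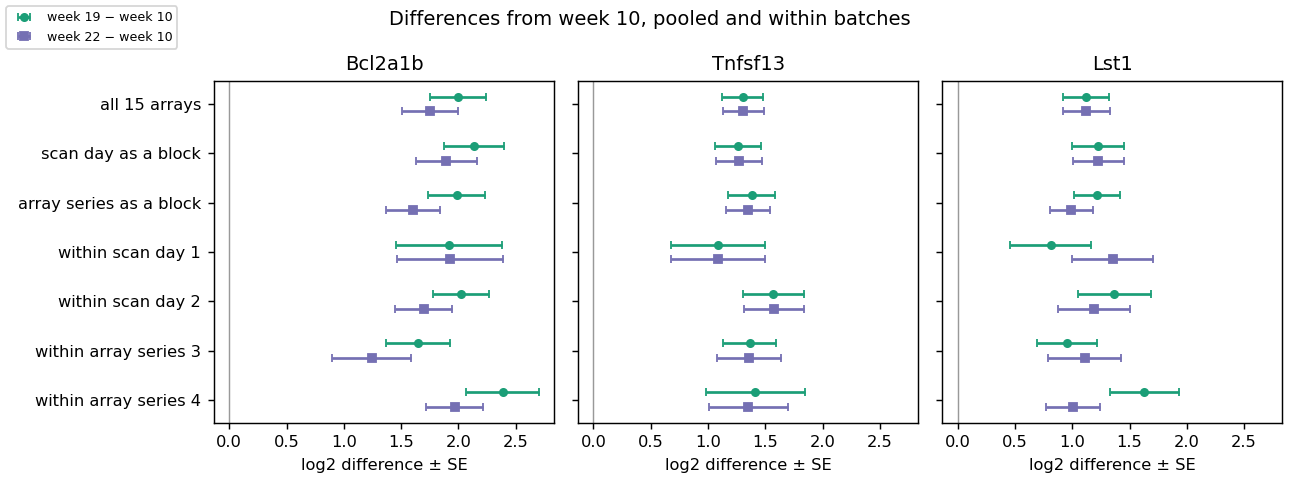
Log2 difference from week 10 (x axis, with SE bars) for Bcl2a1b, Tnfsf13 and Lst1 at weeks 19 and 22, over all 15 arrays, with scan day or array series as a block, and within batches. The lowest value is 0.81 for Lst1 at week 19 within scan day 1 and the highest is 2.38 for Bcl2a1b at week 19 within array series 4.

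Week 15 was not among the ages that chose the genes, although the week 10 arrays it is set against were. No member passed at week 15 against week 10, where limma called 7 of 20867 probes (0.0335%), with 4 higher (0.0192%) and 2413 at an unadjusted p under 0.05. Bcl2a1b differed by 0.64 ± 0.30 (limma adjusted p = 0.436, 95% interval from -0.014 to 1.30), Tnfsf13 by 0.16 ± 0.22 (adjusted p = 0.766, from -0.32 to 0.64) and Lst1 by -0.15 ± 0.25 (adjusted p = 0.815, from -0.70 to 0.40). The Bcl2a1b value rests on the array kept. Keeping only week 15 replicate 1 gave a difference of 1.26, while keeping only replicate 2 gave 0.02. Such fits have 1 array at week 15, so only the sizes are given. Of all arrays, week 15 replicate 1 had the lowest share of detected probes (46.1%) and the lowest median signal (650.2). An early rise of Bcl2a1b therefore cannot be told from a shift of that array. Week 19 lay above week 15 by 1.35 ± 0.31 for Bcl2a1b, 1.14 ± 0.23 for Tnfsf13 and 1.27 ± 0.26 for Lst1, given without a test because the week 19 arrays took part in the choice. The corresponding differences at week 22 were 1.11 ± 0.31, 1.14 ± 0.23 and 1.27 ± 0.26.

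Levels at weeks 22 and 19 both took part in the choice of the genes, so their difference is given without a test. Week 22 minus week 19 was -0.24 ± 0.26 for Bcl2a1b (95% interval from -0.80 to 0.31), 0.0045 ± 0.19 for Tnfsf13 (from -0.40 to 0.41) and 0.003 ± 0.21 for Lst1 (from -0.46 to 0.47). The interval of Bcl2a1b reaches down to 0.576 of its week 19 level. Over all kept probes, limma called 0 of 20867 in this comparison (0.0%), with 1527 at an unadjusted p under 0.05.

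The chemokines Ccl19 and Ccl21a, which draw cells bearing the receptor CCR7 into lymphoid tissue, had wider ranges at the late ages. Ccl19 was at 16.30 ± 0.45 (SD, n = 4) at week 19 and at 13.56 ± 1.14 (n = 4) at week 22, and its week 22 arrays stood at 12.71, 12.45, 14.40 and 14.67. The difference between these ages did not pass for Ccl19 (-2.74 ± 0.73, limma adjusted p = 0.391) or for Ccl21a (-2.50 ± 0.73, adjusted p = 0.454). The lowest late array of Ccl19 lay 2.59 below its highest early one, which was week 15 replicate 1 at 15.04. The log2 level of each leukocyte gene minus that of Ccl19 was taken per animal and compared between the late ages. It was higher at week 22 by 2.50 for Bcl2a1b, by 2.75 for Tnfsf13 and by 2.75 for Lst1. These 3 values are given without a test, since nearly all of each is the difference of Ccl19 itself, whose week 19 arrays (lowest 15.63) all lay above its week 22 arrays (highest 14.67). Scan day changed the size, with 3.73, 3.73 and 4.27 within day 1 and 2.09, 2.42 and 2.24 within day 2. Within array series 3 the values were 3.71, 4.11 and 4.27, and within series 4 they were 0.68, 1.04 and 0.48. With Ccl21a in place of Ccl19 the differences were 2.26, 2.51 and 2.51.

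**Figure D3:**
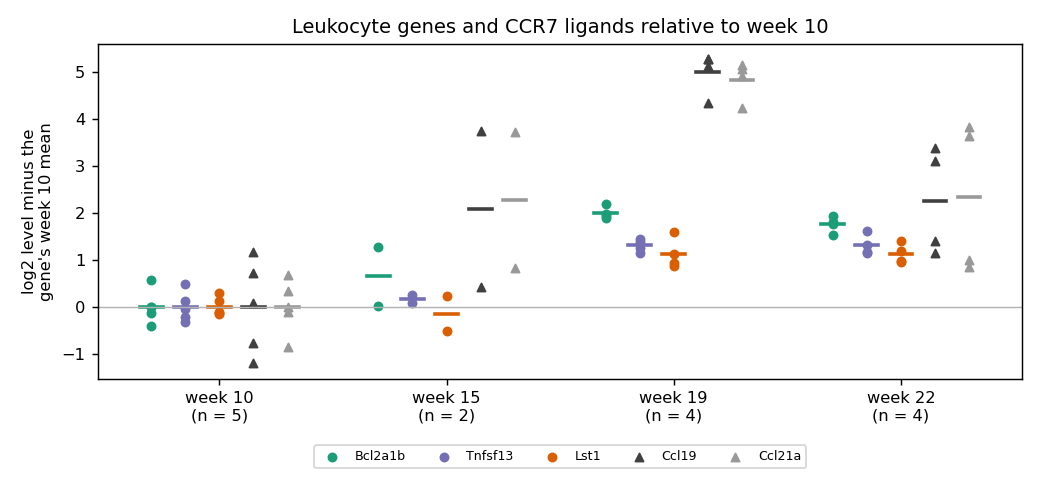
Log2 level of each array minus the gene's week 10 mean (points, with a bar at the mean of each age) for Bcl2a1b, Tnfsf13, Lst1, Ccl19 and Ccl21a. The means of the leukocyte genes differ by at most 0.24 between weeks 19 and 22, while the means of Ccl19 and Ccl21a are 2.74 and 2.50 lower at week 22 than at week 19 and week 15 replicate 1 is high for both chemokines.

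Across the 15 arrays the 3 genes went together, with a Pearson r of 0.917 for Bcl2a1b and Lst1, 0.886 for Bcl2a1b and Tnfsf13 and 0.887 for Tnfsf13 and Lst1. These values mostly carry the step between early and late ages for which the genes were chosen. With the mean of each age removed they were 0.729, 0.028 and 0.163, as a description over 15 arrays that share scan days and normalization. At week 15, with 2 arrays, this leaves 2 equal and opposite values. The value of 0.729 rests in large part on that pair, at 15.22 and 13.98 for Bcl2a1b and 13.12 and 12.38 for Lst1. Within the 8 late arrays Bcl2a1b and Lst1 had r = 0.465 and rho = 0.381 (exact permutation p = 0.253 and 0.36, adjusted p = 0.76 and 0.713 over 6 relations). Within the 7 early arrays the values were r = 0.560 and rho = 0.286 (exact permutation p = 0.196 and 0.556, adjusted p = 0.76 and 0.713), and without the 2 arrays farthest from the median r was -0.415. That early relation rests on week 15 replicate 1 and week 10 replicate 4, the arrays left out. Within the 6 late arrays of scan day 2 the late r was 0.565 (exact permutation p = 0.244).

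Centring each array on its median gave r = 0.876 for Bcl2a1b and Lst1 over the 8 late arrays (exact permutation adjusted p = 0.0356), so this relation depends on the scaling. All these permutations, early or late, pooled ages and used arrays that took part in the choice of the genes. Their p-values are therefore read only as a description. Tnfsf13 and Bcl2a1b had r = 0.006 and rho = -0.167 over the late arrays (exact permutation p = 0.989 and 0.703) and r = 0.187 and rho = 0.286 over the early ones (p = 0.691 and 0.556). For Tnfsf13 and Lst1 these were r = 0.056 and rho = 0.167 over the late arrays (exact permutation p = 0.894 and 0.703) and r = 0.150 and rho = 0.179 over the early ones (p = 0.743 and 0.713). The adjusted p of r was 0.989 for each of these relations, and without the 2 farthest arrays the late r was -0.553 for Bcl2a1b and Tnfsf13 and -0.149 for Tnfsf13 and Lst1. In the early arrays those values were 0.363 and -0.121.

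**Figure D4:**
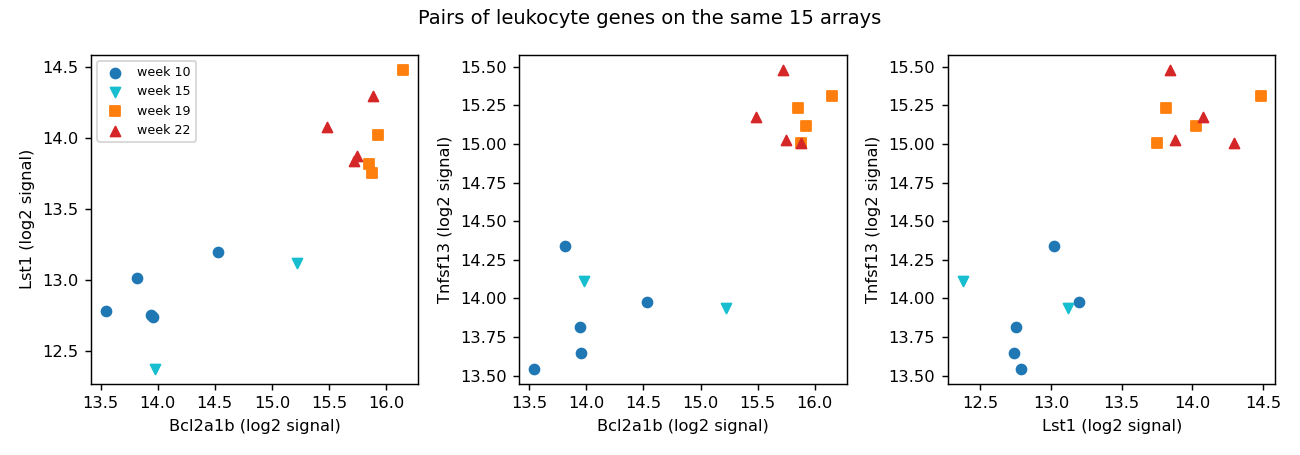
Log2 signals of Bcl2a1b, Lst1 and Tnfsf13 plotted against each other in pairs, 1 point per array, with colour and shape for age. Early and late arrays form separate groups in each panel, and within the 8 late arrays r is 0.465 for Bcl2a1b with Lst1, 0.006 for Bcl2a1b with Tnfsf13 and 0.056 for Lst1 with Tnfsf13.

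Among 211 named probes the pattern most like Bcl2a1b over the 15 arrays was that of Csprs (Pearson r = 0.930, and 0.757 with age means removed), followed by C130026I21Rik (0.90 and 0.303) and Nat8f2, of an acetyltransferase family (0.864 and 0.236). The nearest to Tnfsf13 were Tmem139 (0.940 and 0.774), the casein gene Csn1s2a (0.919 and 0.664) and Chrnb1 (0.910 and 0.577). Lst1 was most like Csprs (0.911 and 0.70), the casein gene Csn2 (0.863 and 0.340) and Csn1s2a (0.859 and 0.333). Csprs was therefore nearest to Bcl2a1b as well as to Lst1, and its level went from 10.86 ± 0.64 (SD, n = 5) at week 10 to 13.13 ± 0.45 (n = 4) at week 22. The values with age means removed share the limit of the week 15 pair given above. Nat8f2 was detected on 0 of 5 week 10 and 0 of 2 week 15 arrays, and Csn2 on 1 of 5 and 0 of 2. Both passed the filter only through the late ages, so their r over 15 arrays rests on largely undetected early signals.

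Of the receptors of APRIL, Tnfrsf13b, which encodes TACI, has a probe that could be named. TACI was detected on 0 of 5 arrays at week 10, 0 of 2 at week 15, 1 of 4 at week 19 and 0 of 4 at week 22, so only its ligand was measured above background throughout. Tnfrsf13b was the only nameable gene of the 40 in a list of TNF ligands and receptors. No gene could be named of 22 other Bcl-2 family genes, of 33 class III neighbours of Lst1, of 73 markers in 4 lists of leukocyte types, or of 14 of endothelium and fibroblasts.

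Another 9 named genes, known from leukocytes or of a gene family known from them, were grouped after it was clear which names the array offered. Of these, 5 passed the filter on dim probes and 0 of 5 were called at week 22 or week 19 against week 10 in the limma fit, where 12% and 12.5% of all kept probes were called. With 5 genes, a count of 0 is near that background. Before adjustment, Ear1 alone at week 22 and Elf4 alone at week 19 were under 0.05. The eosinophil ribonuclease gene Ear1 differed by -0.61 ± 0.21 at week 22 (limma adjusted p = 0.0739), and the transcription factor gene Elf4 by 0.70 ± 0.29 at week 19 (adjusted p = 0.127). Ifi202b, induced by interferon, differed by 0.33 ± 0.28 at week 22 (adjusted p = 0.468) and Tlr7, a receptor for single-stranded RNA, by 0.13 ± 0.39 (adjusted p = 0.863). The fifth was Fpr-rs6, grouped here only through the formyl peptide receptor family (0.41 ± 0.60, adjusted p = 0.71). It was dim, being detected on 2 of 5, 1 of 2, 2 of 4 and 1 of 4 arrays in order of age. The group's median difference was 0.13 at week 22 and 0.08 at week 19, against -0.01 and -0.02 for all kept probes. Of the 4 genes that did not pass the filter, Nlrp3 and Art2b were each detected on 1 of 4 week 22 arrays and Klri2 on 1 of 5 week 10 arrays, with TACI as above.

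Genes of other cell types moved between the same ages. At week 22 against week 10, 4 of 4 named milk protein genes were higher (median difference 4.46, beside 7.78% of all kept probes higher). Of these, Csn2, Csn1s2b and Wap were each detected on 1 of 5 week 10 arrays and 0 of 2 week 15 arrays. They passed the filter only through the late ages, so their differences rest on largely undetected early signals. Nothing is read from the counts of milk protein genes at either late age. Aoc3 of the adipocyte list fell by 1.46 ± 0.42 (limma adjusted p = 0.0377) at week 22. The hair keratin genes Krt25 and Krt27 differed by -5.08 ± 1.90 and -4.93 ± 2.15 and did not pass (adjusted p = 0.0982 and 0.152). Each was detected on 3 of 5 week 10 and 0 of 4 week 22 arrays, and Krt27 passed the filter only through week 10. Their differences thus rest on undetected week 22 signals, and nothing is read from these tests. At week 19, 2 of 4 milk protein genes were higher (median difference 2.75, beside 7.28% of all kept probes), Csn1s2a and Csn2, while Csn1s2b and Wap did not pass (limma adjusted p = 0.322 and 0.261). Aoc3 fell by 1.54 ± 0.42 there (adjusted p = 0.0288). Their part in the levels of the leukocyte genes was not tested. Without week 10 replicates 1, 2 and 4, the arrays on which these keratins were high, the week 22 minus week 10 difference was 1.96 for Bcl2a1b, 1.57 for Tnfsf13 and 1.26 for Lst1. The chemokine list had 3 of 7 genes named, Ccl19, Ccl21a and Ccl21b. All 3 were called higher at week 19, beside 7.28% of all kept probes, and 1 at week 22, beside 7.78%. The week 22 differences were nonetheless close, at 2.25 ± 0.69, 2.33 ± 0.69 and 2.10 ± 0.70. Their limma adjusted p lay on both sides of the threshold (0.0508, 0.0445 and 0.0664).

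The position of Tnfsf13 allowed a look at its neighbours. Of the 20 nearest protein-coding genes in RefSeq order, 10 on each side, 8 could be named on the array and 5 were kept. For Bcl2a1b and Lst1 none of 20 could be named. Senp3, a SUMO protease gene next to Tnfsf13 in this order, differed by -0.01 ± 0.14 at week 22 and by 0.08 ± 0.14 at week 19 against week 10 (limma adjusted p = 0.96 and 0.751). Chrnb1, a subunit of the muscle acetylcholine receptor and 6 genes away, was the 1 of 5 that passed, rising by 1.59 ± 0.27 at week 22 (limma adjusted p = 0.00257) and 1.23 ± 0.27 at week 19 (adjusted p = 0.011). Of all kept probes, 12% at week 22 and 12.5% at week 19 were called either way. With 5 genes, a count of 1 is near that background. Mpdu1, Fgf11 and Fxr2 differed by -0.51 ± 0.22, -0.39 ± 0.27 and -0.05 ± 0.64 at week 22 and did not pass. The RefSeq order also lists Tnfsfm13, a read-through of Tnfsf12 and Tnfsf13, beside Tnfsf13, with an antisense RNA, Tnfsf13os, over the same stretch, and the probe may not separate them.

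**Figure D5:**
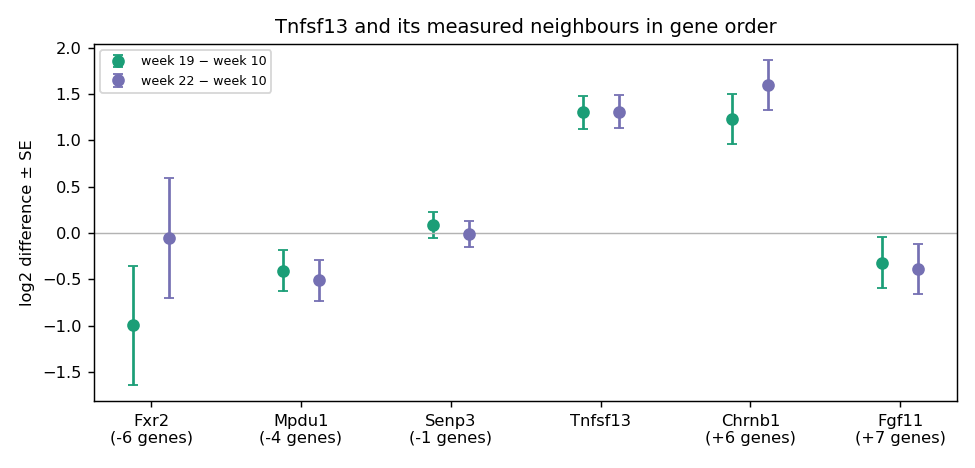
Log2 difference from week 10 with SE for Tnfsf13 and its 5 measured neighbours in gene order, at weeks 19 and 22. Tnfsf13 (1.30 and 1.31) and Chrnb1 (1.23 and 1.59) lie high, and Senp3, the nearest measured gene, lies near 0.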

How the data were processed

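Per the labels, cRNA carried digoxigenin and images were read as the array maker prescribes. The deposited array files give each probe's signal intensity, its spread, a flag for quality and a score of signal over noise, per the file headers. The sources used here do not say how background was treated. The authors' deposited value table holds log2 values with nearly equal distributions on all arrays and was used as an alternative, as it ranks the probes of each array as the scanner signal does. What offset or floor it carries is unknown.

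After 303 control spots were left out, log2 signals of 33012 gene probes were normalized between arrays by quantiles. Probes with signal over noise of 3 or more and a flag under 5000 in 50% or more of the arrays of an age were kept (20867). Differences were fitted by limma's lmFit and eBayes (version 3.58.1, R 4.3.3; two-sided, age as 4 levels, Benjamini-Hochberg over all kept probes, threshold 0.05), a procedure tested on simulated data. Week 15 has 2 arrays and borrows the spread of the other ages. Replicate numbers follow the order of deposit. Subsets of arrays kept the normalization and the probes of the whole set. Names came from unversioned accessions matched to RefSeq genes of GRCm38.p6 (317 probes, 311 genes). No genome build is named for the array files. Permutation tests were exact, over animals of pooled ages, and their p-values are descriptive. Planned tests of week 22 against week 19 for the members, also relative to Ccl19, are given as descriptions, since the choice of genes used both ages. Promoters were aligned with Biopython 1.88.

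The members, the lists and the tests were chosen with earlier results of these data known. The genes named are the 3 members, the 3 named genes nearest to each by Pearson r, the members of the lists that could be named, and Ccl19 and Ccl21a. The 9 genes of leukocytes or related gene families, the neighbours of Tnfsf13 and the motifs were added after the names or sequences were seen. Alternatives were array medians, the value table, no filter, scan day or array series as a block or taken alone, array weights, and arrays left out.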

Additional observations from a re-analysis of the deposited data

How the results depend on the processing

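No paired analysis was possible because each array holds the RNA of 1 animal and the ages are different mice. Of the alternative values, 273 kept their direction and their side of the threshold or moved by less than the spread between replicates. That count is no measure of robustness, as some settings could not move a value. Leaving out the filter kept every member difference, and scan day as a block kept those of week 22 against week 19. Another 32 moved further and 22 turned direction. A further 14 changed from under to over the threshold, and 2 changed the other way. The 14 are all levels relative to Ccl19 compared between the late ages. These are given without a test, so nothing is read from their change. The 2 were Bcl2a1b in a fit that left 1 array in an age, and Bcl2a1b with Lst1 over the late arrays under array medians. Nothing is read from the fit with 1 array. The differences from week 10 at weeks 19 and 22 kept their sign under every alternative run. Nothing is read from that, since the genes were chosen on these contrasts and late and early arrays did not overlap. No choice of arrays could therefore turn the sign. With arrays left out in turn the differences ranged from 1.65 to 1.90 (Bcl2a1b), 1.20 to 1.42 (Tnfsf13) and 1.03 to 1.20 (Lst1) at week 22 and from 1.89 to 2.14, 1.22 to 1.42 and 0.97 to 1.21 at week 19. Those that moved further were Bcl2a1b at week 22 within series 3 (1.24) and at week 19 within series 4 (2.38), Lst1 at week 19 within day 1 (0.81) and series 4 (1.63), and Tnfsf13 at week 22 with array medians (1.57), within day 2 (1.58) and without week 10 replicates 1, 2 and 4 (1.57), and at week 19 in the last 2 settings (1.57 and 1.57). For these the cause was not tested.

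At week 15 against week 10 Bcl2a1b ranged from 0.020 to 1.26, Tnfsf13 from 0.07 to 0.28 and Lst1 from -0.52 to 0.22 with arrays left out, and Lst1 turned to 0.18 within day 1. At week 22 against week 19 the ranges were -0.30 to -0.17, -0.099 to 0.059 and -0.088 to 0.16. There Bcl2a1b turned to 0.047 with array medians and 0.0049 within day 1, Tnfsf13 to -0.034 with array series as a block, -0.0026 within series 3 and -0.059 within series 4, and Lst1 to -0.22, -0.18 and -0.62 (series as a block, day 2, series 4) and -0.047 with array weights. Array medians placed the median of all kept probes at 0.14 at week 22 against week 10 and at 0.19 against week 19, so small differences depend on the scaling.

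Relative to Ccl19 the late differences ranged from 2.16 to 2.87, 2.38 to 3.08 and 2.36 to 3.18 with arrays left out, and with Ccl21a they were 2.26, 2.51 and 2.51. Over the late arrays r was 0.876 for Bcl2a1b with Lst1 under array medians, and without the 2 farthest arrays r turned to -0.415 (Bcl2a1b and Lst1, early), -0.553 (Bcl2a1b and Tnfsf13, late), -0.121 and -0.149 (Tnfsf13 and Lst1, early and late).

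The count of called probes at week 22 against week 10 was 2495, with array weights 5158, and from 1211 (without week 22 replicate 4) to 2475 with arrays left out. At week 19 it was 2612, with array weights 4240, with scan day as a block 1683, and from 1415 (without week 19 replicate 3) to 2752. At week 15 it was 7, with series as a block 1, with weights 3, without week 10 replicates 1, 2 and 4 it was 0, and from 3 to 943 (without week 15 replicate 2). At week 22 against week 19 it was 0, with array medians 3, with scan day as a block 1, with weights 21, and from 0 to 13. The number of arrays, above all 2 at week 15, limits the precision.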

Other observations

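Before normalization the signal of Bcl2a1b ranged from 11468 to 21341 at week 10 and from 42146 to 97824 at week 19, and that of Lst1 from 5629 to 8553 and from 10161 to 33544. The highest raw signals of Bcl2a1b and Lst1 were both on week 19 replicate 3, while that of Tnfsf13 (81890) was on week 22 replicate 4. The median signal of all gene probes was from 958.1 to 1205 on week 10 arrays, from 835.4 to 1473 at week 19 and from 849.6 to 1626 at week 22.

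Many probes shared the pattern of the 3 genes. Among 20867 kept probes, 373 others had a Pearson r of at least 0.9 with Tnfsf13 over the 15 arrays, 177 with Bcl2a1b and 70 with Lst1. Most of these probes carry no gene name here. None of 9 groups of the members' values (weeks 10, 19 and 22) held an array that Dixon's test set apart.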
